A study of Mus musculus with 96 samples.

Results

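The 7 genes described here encode the core of Nodal signalling as it runs in mouse embryonic stem cells (ESCs): the ligands Nodal and Gdf3, the co-receptor Tdgf1, the receptor Acvr2b, the nuclear partner Foxh1, and the secreted inhibitors Lefty1 and Lefty2. They were taken by gene symbol, matched to the Ensembl identifiers of the count tables, and are 7 of the 37620 genes listed there. All 7 passed the filter on low counts in each of the 7 RNA-seq count tables, so no member was left out of any comparison. The peaks near them were read from 14 deposited ChIP-seq peak lists.

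Nodal is a secreted ligand of the TGF-beta family. Its precursor is cleaved by proprotein convertases, and the mature ligand binds activin receptors of type I and type II, among them ACVR2B, with the help of the membrane-anchored co-receptor encoded by Tdgf1 (also called Cripto). Activated receptors phosphorylate SMAD2 and SMAD3, which join SMAD4 and enter the nucleus, where FOXH1 guides them to target genes. Nodal itself, Lefty1 and Lefty2 are known targets of this complex, and the LEFTY proteins bind the ligand or the co-receptor and so close a negative feedback loop. GDF3 is a related ligand that is made by pluripotent cells and that can pair with Nodal.

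The study asked how RYBP, a subunit of non-canonical Polycomb repressive complex 1 (PRC1), acts on transcription in ESCs together with WDR5, a core subunit of the complexes that methylate histone H3 at lysine 4 (H3K4me3). The series also holds samples on STAT3, the transcription factor downstream of LIF. Each count table held 4 libraries, 2 per group, and was compared on its own. The labels do not say whether the 2 libraries of a group came from separate cultures, so p-values measure only the spread between these libraries, which may be technical. In bulk RNA, fewer cells of a type and less RNA per cell cannot be told apart.

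The RYBP knockout table compared Rybp-/- with Rybp+/+ ESCs of line R7.15, in which the study deletes a floxed Rybp allele with 4-OHT, given to the Rybp-/- cells at 5 uM for 4 days. All samples were grown with serum and 1000 U/mL LIF. The knockdown tables used R1 ESCs with an shRNA against Rybp (shRybp) or Wdr5 (shWdr5), and both were set against the same empty-vector libraries (shEV), so their differences share controls. The TF-AA table compared R1 ESCs labelled TF-AA mutation with WT ESCs of the same line, and the labels do not spell out the mutated protein. The phase disruption table compared 2 rescue lines of R7.15, both RYBPfl/fl Rosa26::CreERT2 and both given 4-OHT: one overexpressed WT RYBP (WT.RYBP), the other RYBP with the deletion labelled 21aa. The overexpression table compared J1 ESCs with a Tet-on RYBP construct under doxycycline (DOX) or vehicle, and the rTRS table compared ESCs with DOX-inducible Rybp and Stat3 under DOX or without it (NTC). The ChIP-seq lists came from Rybp+/+ and Rybp-/- ESCs, from R1 ESCs with DOX-inducible Rybp and Stat3 (DOX- and DOX+), and from R1 ESCs with an shRNA against Stat3 (shStat3) and their shEV control.

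The count tables held 14512857 to 81049618 counts on genes per library, and the members had between 112 counts (Acvr2b) and 84916 counts (Tdgf1) in a library. The shEV columns of the knockdown tables are not identical: they held 41697967 and 38961268 counts beside shRybp and 21241931 and 19731613 counts beside shWdr5. Levels are given as CPM, counts scaled to the library total after TMM normalization, and differences as log2 of the perturbed over the control group with a standard error (SE). A difference was called at an adjusted p under 0.05 in the quasi-likelihood test of edgeR, adjusted after Benjamini and Hochberg over all genes of the table, and every adjusted p below comes from that test unless another tool is named. The perturbed gene followed its label in 4 tables. Rybp fell by 2.15 in the knockout and by 1.25 in the knockdown, Wdr5 fell by 2.55 in its knockdown, and Rybp rose by 1.91 under DOX in the overexpression table. Rybp was at 749 and 753 CPM in the WT.RYBP libraries and at 662 and 626 CPM in the phase disruption libraries. That table held no line without a rescue to set these levels against.

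The rTRS libraries went against their label for Rybp. It stood at 113 and 110.5 CPM in the NTC libraries and at 102 and 99.8 CPM in the libraries labelled DOX, a log2 difference of -0.15 (edgeR adjusted p = 0.0762). Stat3 was at 159 and 172 CPM without DOX and at 191 and 188 CPM in the libraries labelled DOX, 0.20 higher (edgeR adjusted p = 0.0259). All rTRS results are therefore given for the libraries labelled DOX. Embryonic stem cell markers (Pou5f1, Nanog, Sox2, Zfp42 and Dppa5a) summed to 2258 CPM or more in every library. In the rTRS table this sum was 3759 and 3531 CPM in the NTC libraries and 2590 and 2417 CPM in the libraries labelled DOX, while the sum of 5 primitive streak markers was 14.4 and 12.2 CPM against 63.6 and 58.0 CPM.

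Levels of different genes can be compared only per length, as CPM per kb of the gene length in the files. In the control groups Tdgf1 was the highest of the 7 genes in every table, at 353 to 749 CPM per kb. Acvr2b was the lowest in every table, at 7.21 to 21.3 CPM per kb. The other 5 lay between 8.17 and 230.3 CPM per kb, and their order changed from table to table. Lefty2 was second in the WT ESC libraries of the TF-AA table, at 230.3 CPM per kb, and sixth in the shEV libraries, at 25.6 CPM per kb. Of the 42 pairs of neighbours in these orders, 6 overlapped between libraries. These were Foxh1 and Lefty2 in the shEV libraries of both knockdown tables, Lefty1 and Acvr2b in the vehicle libraries, Foxh1 and Gdf3 as well as Gdf3 and Nodal in the WT.RYBP libraries, and Foxh1 and Nodal in the WT ESC libraries. The order was otherwise the same in both libraries of a control group, and it was not tested. The tables were scaled separately, and levels from different tables were not tested against each other.

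**Figure D1:**
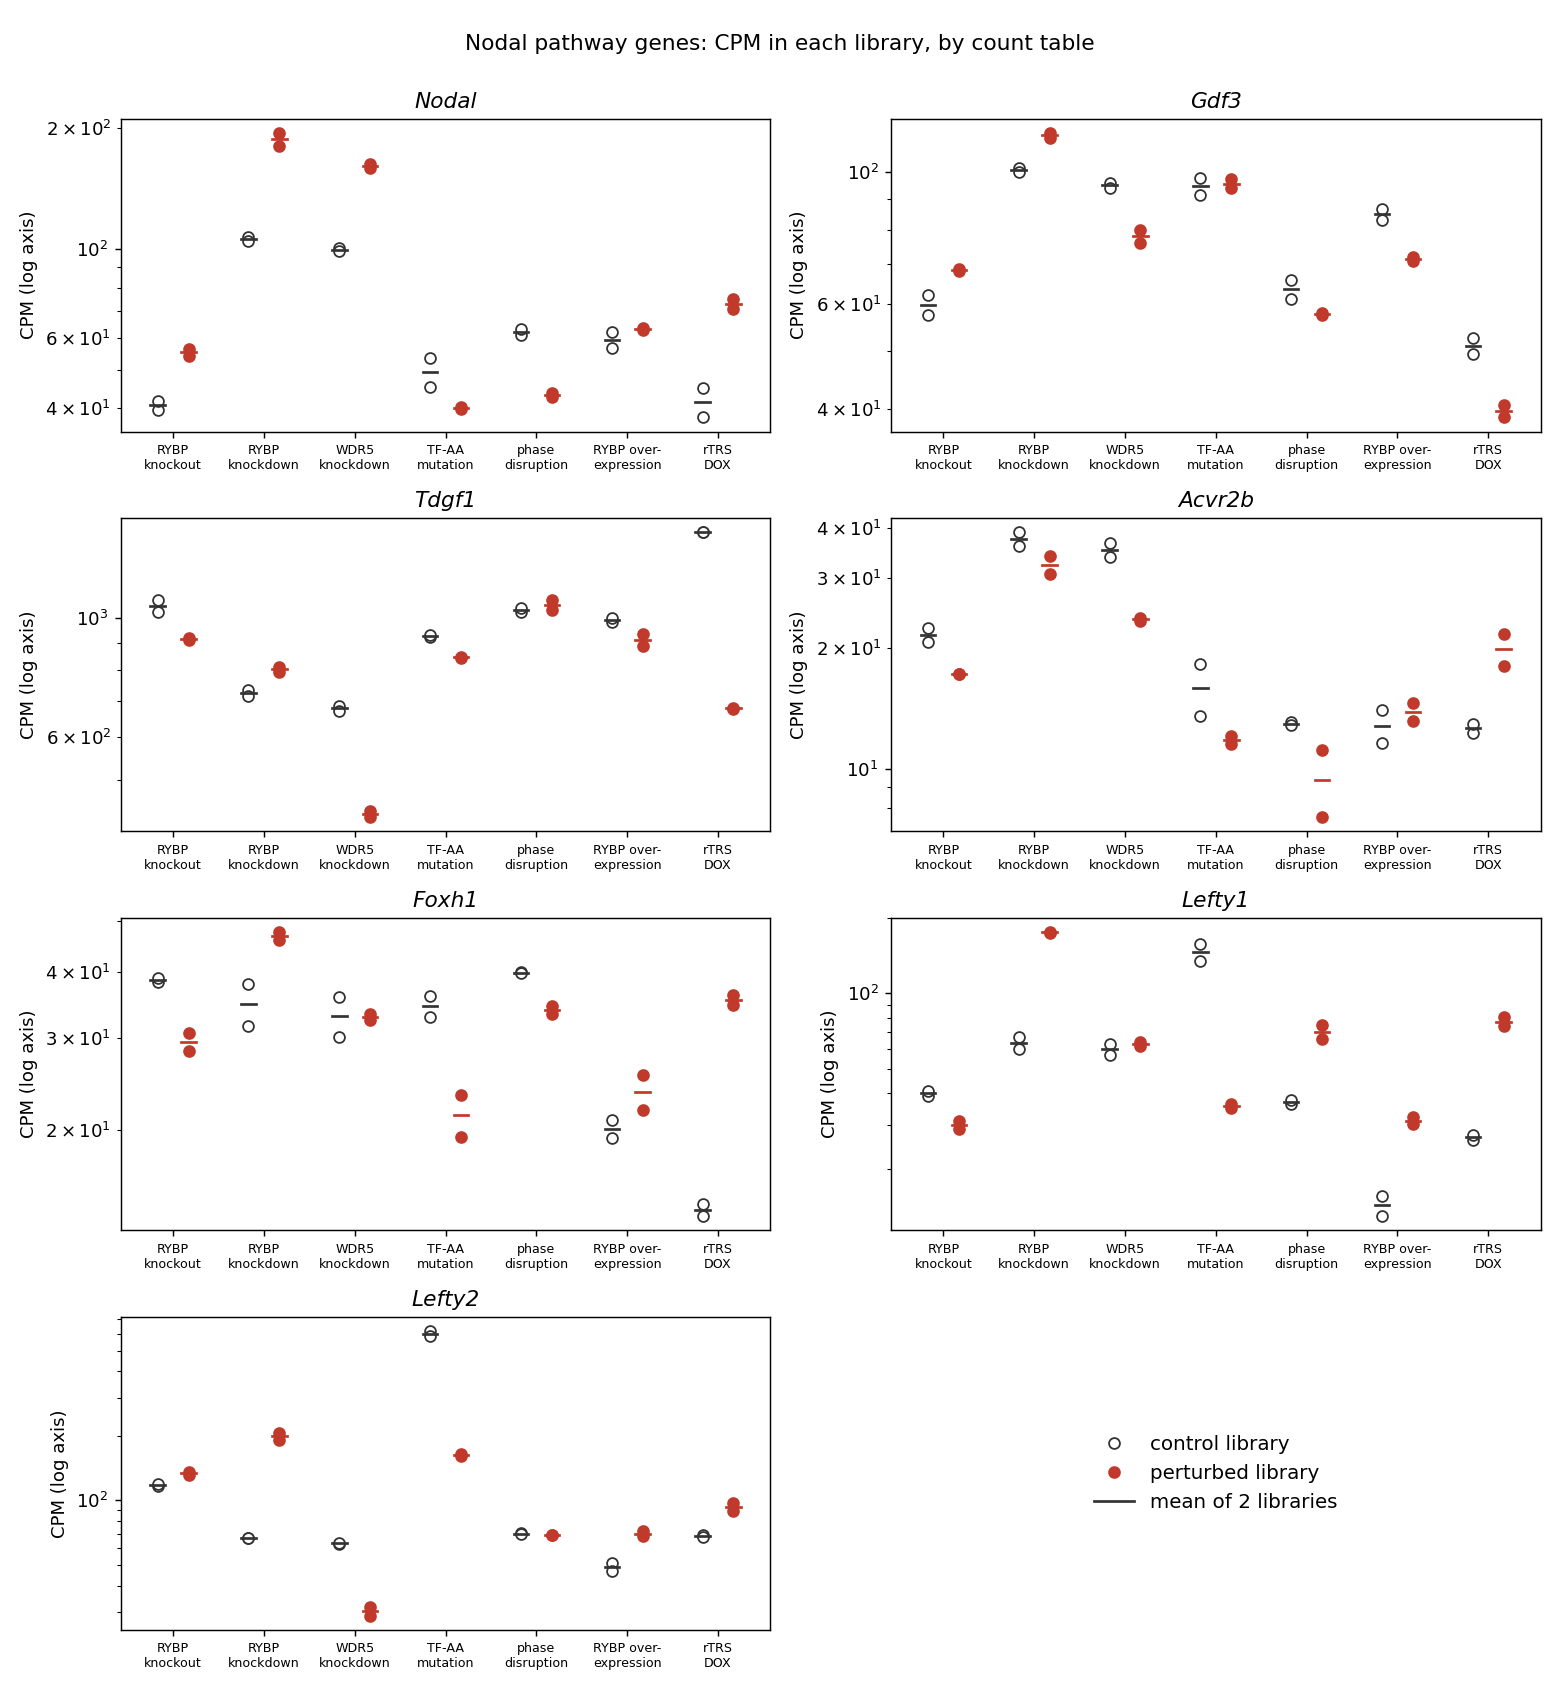
CPM (log axis) of each gene in every library, with control libraries as open points, perturbed libraries as filled red points and the mean of 2 libraries as a line. Tdgf1 is at its lowest in the shWdr5 libraries (427 and 438 CPM) and drops in the libraries labelled DOX of the rTRS table (680.2 and 678 CPM), and Lefty1 and Lefty2 show the widest range of levels.

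The sequences below come from places where the peak lists and the genes meet, and they show what lies under a promoter or a peak. The promoter sequences run from 250 bases before to 50 bases after the start of the gene in RefSeq (build GRCm38.p6), on the strand of the gene. Of the 7 members, Tdgf1, Acvr2b and Nodal matched that promoter table. Each of the 3 sequences also had 1 exact match in the build of the peak files (NCBIM37, mm9), where the RefSeq start equals the annotated start for Tdgf1 and Nodal and lies 266 bp before it for Acvr2b. The other 3 sequences are windows of 201 bases around a peak summit in NCBIM37, outside exons: the strongest H3K27ac summits upstream of Nodal and Lefty2 in Rybp+/+ ESCs, and the STAT3 summit nearest upstream of Lefty1 in DOX+ cells. Capitals mark matches on either strand to 2 motifs: TGTNNATT as a form of the FOXH1 motif and CAGACA as a form of the SMAD motif. No match overlaps a match to the other motif.

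Tdgf1 promoter, GRCm38.p6 chr9:110946109-110946408, minus strand: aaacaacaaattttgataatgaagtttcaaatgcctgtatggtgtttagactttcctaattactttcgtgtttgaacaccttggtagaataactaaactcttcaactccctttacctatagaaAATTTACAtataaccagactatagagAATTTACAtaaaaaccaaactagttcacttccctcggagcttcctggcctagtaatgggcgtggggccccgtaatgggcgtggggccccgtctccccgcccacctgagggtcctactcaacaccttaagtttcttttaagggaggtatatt
Acvr2b promoter, GRCm38.p6 chr9:119401928-119402227, plus strand: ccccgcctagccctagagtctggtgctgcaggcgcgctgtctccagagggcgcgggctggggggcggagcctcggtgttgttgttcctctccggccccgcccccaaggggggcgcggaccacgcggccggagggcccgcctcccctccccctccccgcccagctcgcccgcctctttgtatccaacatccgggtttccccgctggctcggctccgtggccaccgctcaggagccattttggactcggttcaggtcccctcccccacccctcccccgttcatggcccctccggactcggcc
Nodal promoter, GRCm38.p6 chr10:61417722-61418021, plus strand: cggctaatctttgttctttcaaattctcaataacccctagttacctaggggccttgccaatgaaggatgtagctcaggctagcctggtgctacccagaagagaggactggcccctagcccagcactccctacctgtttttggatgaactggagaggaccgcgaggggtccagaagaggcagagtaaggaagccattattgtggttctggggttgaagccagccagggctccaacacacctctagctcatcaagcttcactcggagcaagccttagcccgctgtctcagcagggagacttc
Nodal H3K27ac summit, NCBIM37 chr10:60879139-60879339, plus strand: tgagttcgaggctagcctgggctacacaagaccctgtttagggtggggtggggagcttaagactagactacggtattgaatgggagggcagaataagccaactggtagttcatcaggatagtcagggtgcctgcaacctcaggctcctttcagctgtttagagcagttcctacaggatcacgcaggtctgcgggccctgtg
Lefty2 H3K27ac summit, NCBIM37 chr1:182819158-182819358, plus strand: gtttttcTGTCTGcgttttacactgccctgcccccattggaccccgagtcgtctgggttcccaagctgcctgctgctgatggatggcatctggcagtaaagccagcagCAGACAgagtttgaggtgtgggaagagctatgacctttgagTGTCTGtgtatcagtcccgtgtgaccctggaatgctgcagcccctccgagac
Lefty1 STAT3 summit, NCBIM37 chr1:182864233-182864433, plus strand: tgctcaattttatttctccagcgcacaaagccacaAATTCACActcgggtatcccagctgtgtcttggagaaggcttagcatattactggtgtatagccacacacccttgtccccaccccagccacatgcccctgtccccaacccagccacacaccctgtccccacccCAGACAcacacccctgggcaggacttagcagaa

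The Tdgf1 promoter holds 2 matches to TGTNNATT, both on the opposite strand, and 12.2% of the 32841 RefSeq promoters hold at least 1. The Acvr2b and Nodal promoters hold no match to either motif. These promoters differ in base composition. The Tdgf1 promoter has 7 CpG dinucleotides and 41.7% G and C, and the Acvr2b promoter 27 CpG and 73.3%. The Nodal promoter has 5 CpG and 54.0%, and the median promoter 7 CpG and 52.7%. Upstream of Lefty2 the H3K27ac window holds 3 matches to CAGACA, and 18.1% of the windows around all 57642 H3K27ac summits of the same list hold at least 1. The H3K27ac window upstream of Nodal holds neither motif. The STAT3 window upstream of Lefty1 holds 1 match to TGTNNATT and 1 to CAGACA, motifs found in 3.51% and 13.4% of the windows around all DOX+ STAT3 summits. It holds no match to the STAT motif TTCNNNGAA on either strand, which 3.82% of those windows hold. A match is a description of letters and not a bound site.

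All 7 members differed between Rybp-/- and Rybp+/+ ESCs, against 45.5% of the 16955 genes tested. Nodal, Gdf3 and Lefty2 were higher in Rybp-/- ESCs, and Tdgf1, Acvr2b, Foxh1 and Lefty1 were lower. The changes were small. Nodal was at 39.7 and 41.9 CPM in Rybp+/+ and at 54.1 and 56.2 CPM in Rybp-/- libraries, 0.44 higher (SE 0.05, edgeR adjusted p = 1.13e-08). Lefty1 was at 39.2 and 41.0 CPM in Rybp+/+ and at 31.1 and 28.8 CPM in Rybp-/- libraries, a fall by 0.42 (SE 0.06, edgeR adjusted p = 2.55e-07). These were the largest rise and the largest fall among the members in this table, and in neither did the groups overlap.

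Foxh1 had 38.3 and 39.0 CPM in Rybp+/+ and 28.3 and 30.6 CPM in Rybp-/- ESCs, a log2 difference of -0.39 (edgeR adjusted p = 9.66e-07). The receptor Acvr2b fell from 22.5 and 20.7 CPM to 17.3 and 17.3 CPM, by 0.32 (edgeR adjusted p = 0.000369). The co-receptor Tdgf1 fell from 1080.4 and 1027 CPM to 916 and 911 CPM, by 0.21 (edgeR adjusted p = 2.63e-07). The libraries of the 2 groups were apart for all 3 genes. Gdf3 and Lefty2 were 0.19 and 0.18 higher. Fibroblast markers moved in this table as well: all 5 of the list were higher in Rybp-/- ESCs, and their sum went from 53.2 and 51.3 CPM to 103 and 109 CPM. Of 5 primitive endoderm markers 3 were higher, and their sum went from 7.46 and 8.79 CPM to 16.3 and 14.8 CPM. The part of these cells in the members' changes was not tested.

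All 7 members also differed between shRybp and shEV cells, against 52.7% of the 16538 genes tested. Of the members 6 were higher and 1 was lower, where 26.8% of all genes were higher and 26% lower. The inhibitors rose most. Lefty2 stood at 66.6 and 67.1 CPM in shEV and at 206 and 192 CPM in shRybp libraries, 1.58 higher (SE 0.05, edgeR adjusted p = 6.28e-14). Lefty1 stood at 67.1 and 60.2 CPM in shEV and at 174 and 176 CPM in shRybp libraries, 1.46 higher (SE 0.06, edgeR adjusted p = 3.61e-13). Every shRybp library exceeded every shEV library for both genes. Their log2 differences lay at percentiles 93.1 and 92.1 of all genes tested.

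Nodal rose with them, from 107 and 104 CPM to 180.2 and 194 CPM, by 0.83 (SE 0.05, edgeR adjusted p = 2.43e-10). Foxh1 rose from 31.7 and 37.9 CPM to 47.8 and 46.1 CPM, by 0.43 (SE 0.08, edgeR adjusted p = 0.000154). The groups did not overlap for either gene. The other 3 calls were small, and each was lost when a single library was left out. Gdf3 was 0.19 and Tdgf1 0.15 higher in shRybp cells, and Acvr2b was at -0.21. Without shRybp replicate 1 the Tdgf1 adjusted p in edgeR was 0.0914 at a log2 difference of 0.13, and without shRybp replicate 2 it was 0.0536 for Gdf3, at 0.18, and 0.255 for Acvr2b, at -0.14. The Acvr2b call was also lost without shEV replicate 2 (edgeR adjusted p = 0.139). Of the primitive endoderm markers 4 of 5 were higher in shRybp cells, with sums of 9.63 and 13.3 CPM against 23.5 and 26.8 CPM. The 3 fibroblast markers tested were higher too, and the sum of that list went from 18.6 and 18.8 CPM to 31.9 and 30.6 CPM, with 1 of its 5 genes at 0 in every library. The part of these cells in the members' changes was not tested.

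Both losses of RYBP can be compared, because the R7.15 and R1 tables share no library. The difference of the 2 log2 differences was called for 5 of the 7 members, against 40.5% of the 18203 genes tested in the joint fit. Lefty1 went down in the knockout and up in the knockdown, and the knockout minus the knockdown was -1.85 (SE 0.08, edgeR adjusted p = 4.35e-14). Lefty2 was higher in both, by 0.18 and by 1.58, and the difference was -1.38 (SE 0.06, edgeR adjusted p = 1.25e-13). Foxh1 moved in opposite directions, with a difference of -0.80 (SE 0.10, edgeR adjusted p = 1.16e-06), and so did Tdgf1, with -0.33 (SE 0.05, edgeR adjusted p = 4.14e-06). Nodal was higher in both, less so in the knockout, with a difference of -0.37 (SE 0.07, edgeR adjusted p = 0.000173). For Gdf3 the difference was 0.02 (SE 0.07, edgeR adjusted p = 0.826) and for Acvr2b -0.09 (SE 0.11, edgeR adjusted p = 0.561), which does not show that these genes responded alike. The cell line and the way RYBP was lowered differ together between the tables and cannot be told apart.

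**Figure D2:**
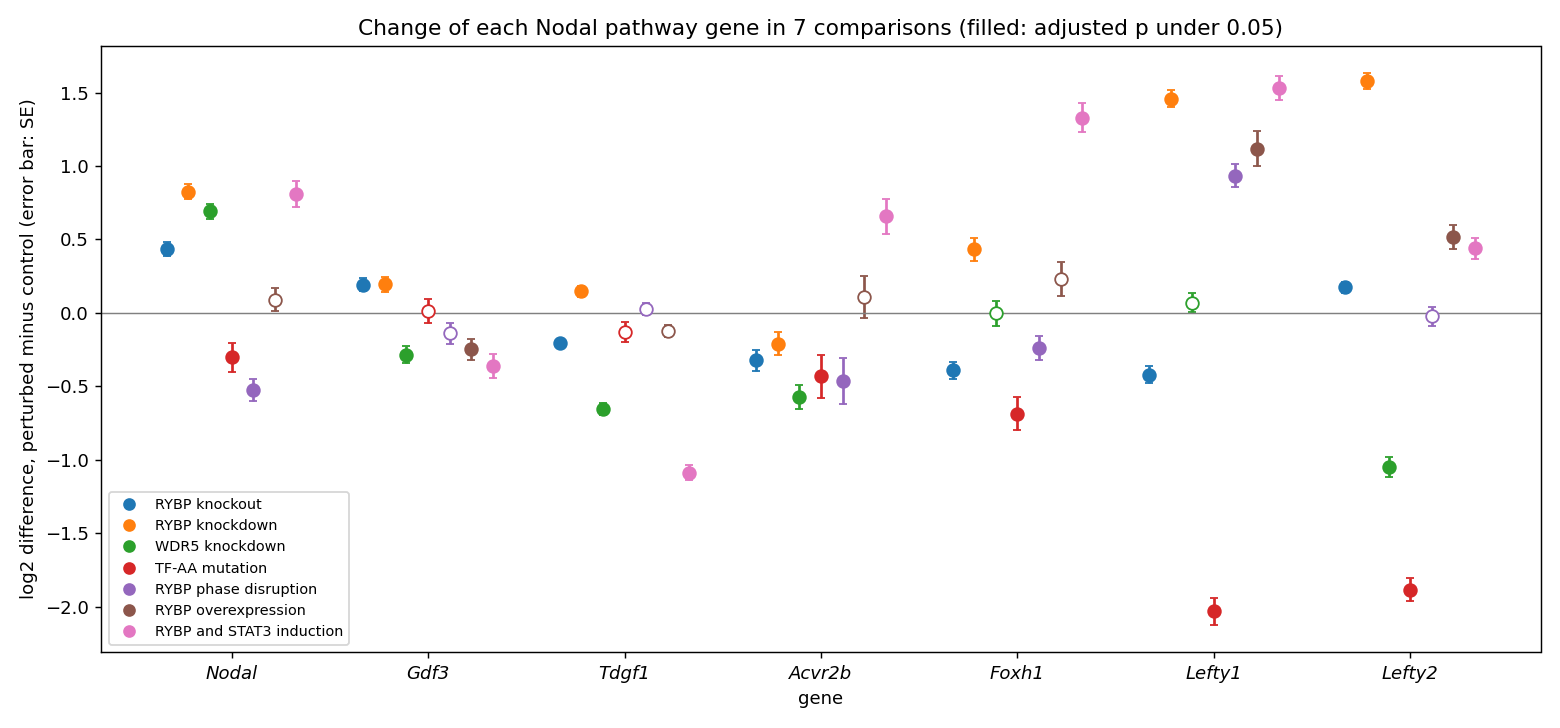
Log2 difference of each gene, perturbed minus control, in the 7 comparisons, with the SE as error bar and filled points where the edgeR adjusted p is under 0.05. Lefty1 and Lefty2 span the widest range, from -2.03 and -1.88 in the TF-AA table to 1.53 for Lefty1 in the rTRS table and 1.58 for Lefty2 in the RYBP knockdown.

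WDR5 knockdown moved 5 of the 7 members, against 63% of the 15143 genes tested: Nodal was higher, and Gdf3, Tdgf1, Acvr2b and Lefty2 were lower. Lefty2 fell from 62.8 and 63.1 CPM in shEV to 31.9 and 29.0 CPM in shWdr5 libraries, by 1.05 (SE 0.07, edgeR adjusted p = 5.96e-12). Its neighbour Lefty1 stood at 63.2 and 56.6 CPM in shEV and at 63.9 and 62.0 CPM in shWdr5 libraries, a log2 difference of 0.07 (SE 0.06, edgeR adjusted p = 0.347). The groups were apart for Lefty2 and overlapped for Lefty1.

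Tdgf1 fell from 687 and 673 CPM to 427 and 438 CPM, by 0.65 (SE 0.04, edgeR adjusted p = 3.46e-12). Acvr2b fell from 33.8 and 36.5 CPM to 23.4 and 23.9 CPM, by 0.57 (SE 0.08, edgeR adjusted p = 1.39e-06). Nodal rose from 100.3 and 98.7 CPM to 159 and 162 CPM, by 0.69 (SE 0.05, edgeR adjusted p = 3.73e-11). None of these groups overlapped, so Nodal rose while both receptor components fell. The other ligand, Gdf3, was lower, at -0.28 (edgeR adjusted p = 0.000109). Foxh1 had 30.1 and 35.8 CPM in shEV and 32.4 and 33.3 CPM in shWdr5 libraries, which overlap (edgeR adjusted p = 0.974). The shEV libraries are those of the RYBP knockdown. Side by side with the same controls, Lefty2 was at 1.58 in shRybp and -1.05 in shWdr5 cells, Lefty1 at 1.46 and 0.07, Tdgf1 at 0.15 and -0.65, and Nodal at 0.83 and 0.69. Primitive endoderm markers were higher in shWdr5 cells for 4 of 5 genes, with sums of 9.77 and 13.1 CPM against 34.3 and 34.1 CPM. Of 5 ESC markers 3 were lower and 1 was higher, with sums of 4906 and 4969 CPM against 4280 and 4263 CPM. Their part in the members' changes was not tested.

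In TF-AA mutation ESCs 5 of the 7 members were lower than in WT ESCs and none was higher, against 30.5% of the 14456 genes called in either direction and 16.1% called lower. Both inhibitors lost most of their level. Lefty1 was at 157 and 135 CPM in WT and at 36.3 and 35.0 CPM in TF-AA libraries, a fall by 2.03 (SE 0.09, edgeR adjusted p = 3.32e-14). Lefty2 was at 616 and 586 CPM in WT and at 161 and 165 CPM in TF-AA libraries, a fall by 1.88 (SE 0.08, edgeR adjusted p = 4.88e-15). The groups lay far apart, and the log2 differences stood at percentiles 0.214 and 0.277 of all genes tested in this table, near its lower end.

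Foxh1 fell from 36.0 and 32.9 CPM to 23.3 and 19.4 CPM, by 0.69 (SE 0.11, edgeR adjusted p = 5.15e-05). Nodal fell from 53.3 and 45.3 CPM to 39.9 and 40.2 CPM, by 0.30 (SE 0.10, edgeR adjusted p = 0.0223). Acvr2b fell from 18.3 and 13.6 CPM to 11.5 and 12.1 CPM, by 0.43 (SE 0.15, edgeR adjusted p = 0.0279). The last pair of calls was weak: both were lost in DESeq2 (adjusted p = 0.0654 for Nodal and 0.107 for Acvr2b). Both were also lost without WT ESC replicate 1 (edgeR adjusted p = 0.200 and 0.345, with log2 differences of -0.18 and -0.21), without TF-AA mutation replicate 1 (edgeR adjusted p = 0.154 and 0.136) and without TF-AA mutation replicate 2 (edgeR adjusted p = 0.121 and 0.0645). Tdgf1 had 921 and 931 CPM in WT and 847 and 844 CPM in TF-AA libraries (edgeR adjusted p = 0.172), and Gdf3 had 97.8 and 91.6 CPM against 97.4 and 94.0 CPM (edgeR adjusted p = 0.913). The sum of fibroblast markers was 11.7 and 11.0 CPM in WT and 24.0 and 24.7 CPM in TF-AA libraries, with 3 of 5 markers higher and 1 at 0 in every library. The sum of primitive endoderm markers was 5.16 and 5.04 CPM against 8.85 and 8.65 CPM, with 1 of 3 tested called higher. The part of these cells in the results was not tested.

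The phase disruption line differed from the WT.RYBP line in 4 of the 7 members, against 33% of the 14575 genes tested. Of the 4, 1 was higher and 3 were lower, where 16.1% of all genes were higher and 17% lower. Lefty1 stood at 36.2 and 37.6 CPM in WT.RYBP and at 65.8 and 75.1 CPM in phase disruption libraries, 0.93 higher (SE 0.08, edgeR adjusted p = 1.17e-11). Lefty2 stood at 70.5 and 69.6 CPM and at 68.7 and 69.1 CPM, a log2 difference of -0.02 (SE 0.07, edgeR adjusted p = 0.823). The groups were apart for Lefty1, and for Lefty2 all 4 libraries lay between 68.7 and 70.5 CPM. Nodal fell from 61.0 and 63.1 CPM to 42.8 and 43.6 CPM, by 0.52 (SE 0.07, edgeR adjusted p = 7.06e-07).

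Foxh1 was at 40.0 and 39.9 CPM in WT.RYBP and at 34.4 and 33.3 CPM in phase disruption libraries, a log2 difference of -0.24 (SE 0.08, edgeR adjusted p = 0.0258). Acvr2b was at 13.1 and 12.9 CPM and at 7.61 and 11.2 CPM, a log2 difference of -0.47 (SE 0.16, edgeR adjusted p = 0.0205). Neither call held in DESeq2 (adjusted p = 0.135 and 0.128). The Acvr2b call was lost without phase disruption replicate 1 (-0.22, edgeR adjusted p = 0.335) and without WT.RYBP replicate 1 (edgeR adjusted p = 0.0546), and without phase disruption replicate 2 the log2 difference was -0.77. The Foxh1 call was lost without WT.RYBP replicate 1 (edgeR adjusted p = 0.106), without WT.RYBP replicate 2 (0.104) and without phase disruption replicate 2 (0.108). Tdgf1 and Gdf3 were at 0.03 and -0.14 (edgeR adjusted p = 0.638 and 0.132). Fibroblast markers were lower in the phase disruption libraries for 3 of 5 genes, with a sum of 391 and 387 CPM against 305 and 330.3 CPM, the highest sums of any table. The sum of streak markers was 30.8 and 31.9 CPM against 18.9 and 19.1 CPM, with 1 of 3 tested called lower. Their part in these differences was not tested.

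Overexpression of RYBP in J1 ESCs moved few genes, 6.02% of the 14937 tested, and 3 of the 7 members were among them, 2 higher (3.63% of all genes) and 1 lower (2.39%). Lefty1 was at 15.7 and 13.0 CPM under vehicle and at 30.2 and 32.1 CPM under DOX, 1.12 higher (SE 0.12, edgeR adjusted p = 5.17e-08). Lefty2 was at 50.8 and 47.0 CPM under vehicle and at 68.3 and 71.6 CPM under DOX, 0.52 higher (SE 0.08, edgeR adjusted p = 3.42e-05). The DOX libraries were above the vehicle libraries for both, and Lefty1 stood at percentile 98.3 of all log2 differences. Gdf3 was at 83.2 and 86.8 CPM under vehicle and at 72.2 and 70.9 CPM under DOX, a log2 difference of -0.25 (SE 0.07, edgeR adjusted p = 0.0271), and this call was lost without DOX replicate 1 (edgeR adjusted p = 0.264) and without DOX replicate 2 (0.347). Nodal had 62.1 and 56.4 CPM against 63.4 and 62.9 CPM (edgeR adjusted p = 0.599). Tdgf1, Foxh1 and Acvr2b were at -0.12, 0.23 and 0.11 (edgeR adjusted p = 0.0679, 0.287 and 0.755). Leaving out vehicle replicate 1 or vehicle replicate 2 brought Tdgf1 past the threshold (edgeR adjusted p = 2.54e-06 and 0.000126).

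In the rTRS table all 7 members differed, against 43.4% of the 16291 genes tested, with 5 higher (23% of all genes) and 2 lower (20.4%) in the libraries labelled DOX. Tdgf1 was at 1443 and 1442 CPM in NTC and at 680.2 and 678 CPM in the libraries labelled DOX, a fall by 1.09 (SE 0.05, edgeR adjusted p = 3.49e-09). Foxh1 was at 14.5 and 13.7 CPM and at 36.2 and 34.6 CPM, 1.33 higher (SE 0.10, edgeR adjusted p = 2.67e-07). Lefty1 was at 26.0 and 27.4 CPM and at 80.3 and 74.0 CPM, 1.53 higher (SE 0.08, edgeR adjusted p = 1.5e-08). No library of one group came within the range of the other for these 3 genes.

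Nodal rose from 44.9 and 38.0 CPM to 74.8 and 70.6 CPM, by 0.81 (SE 0.09, edgeR adjusted p = 1.06e-05). Acvr2b rose from 12.3 and 12.9 CPM to 21.8 and 18.1 CPM, by 0.66 (SE 0.12, edgeR adjusted p = 0.000735). Lefty2 was 0.44 higher, and Gdf3 was at -0.36 (edgeR adjusted p = 0.000286 and 0.00276). The receptor, the nuclear partner and the feedback inhibitors thus rose in the libraries in which the co-receptor and Gdf3 fell. Of 5 ESC markers 3 were lower in the libraries labelled DOX and of 5 streak markers 3 were higher, T among them with a mean of 1.51 CPM in NTC and 30.6 CPM in the libraries labelled DOX. The sum of primitive endoderm markers was 8.53 and 6.83 CPM in NTC and 21.3 and 20.7 CPM in the libraries labelled DOX, with 1 of 5 called higher. The part of such a change in cell state was not tested.

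Across the 7 comparisons Lefty1 and Lefty2 were each higher in 4, lower in 2 and not called in 1, but not in the same ones. Nodal was higher in 4 and lower in 2. Acvr2b was the most one-sided member, lower in 5 and higher in the rTRS table, but 3 of its 5 lower calls (RYBP knockdown, TF-AA and phase disruption) were lost when a single library was left out. Gdf3 moved least, between -0.36 and 0.19. Lefty1 and Lefty2 lie next to each other on chromosome 1, with 35.9 kb between the end of Lefty2 and the start of Lefty1 in NCBIM37, and their transcripts share stretches of sequence. Of the windows of 50 bases in the Lefty1 transcript, 17.9% occur letter for letter in Lefty2, so reads from these stretches could be assigned to either gene or to none. Over the 14 perturbed libraries, as log2 CPM minus the control mean of the same table, Lefty1 and Lefty2 had a Pearson r of 0.84, Acvr2b and Foxh1 of 0.81, and Nodal and Tdgf1 of -0.50. These 14 points form 7 pairs of replicates, and 4 of them share the shEV controls.

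Among the 13126 genes tested in all tables, those most like Nodal by the same measure were Ahnak (0.96), Msn (0.96) and Fam107b (0.96). Those most like Lefty1 were Wdfy3 (0.97), Idh2 (0.96) and Ap3b2 (0.94), and those most like Lefty2 were Kdelc1 (0.95), Hmox1 (0.93) and Dusp1 (0.93). These values of r are the highest of a ranking of 13126 genes over the same 14 points, and they were not tested.

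Of 27 other genes of the pathway, 20 to 23 passed the filter on low counts per table. Gdf1, Acvr1c and Cer1, at or near 0 CPM, passed it in none, and Inhba, Cfc1, Mixl1 and Gsc failed it in some tables. The share called in either direction, beside that of all genes tested, was 60.9% and 45.5% in the RYBP knockout, 63.6% and 52.7% in the RYBP knockdown, 68.2% and 63% in the WDR5 knockdown and 47.6% and 30.5% in the TF-AA table. It was 36.4% and 33% in the phase disruption, 10.0% and 6.02% in the overexpression and 86.4% and 43.4% in the rTRS table. In the WDR5 knockdown and the phase disruption the share was near that of all genes. The shares rest on few genes, such as 2 of 20 in the overexpression and 14 of 22 in the RYBP knockdown. None was tested against the share of all genes. By direction, 22.8% of all genes were higher and 22.7% lower in the RYBP knockout, 26.8% and 26% in the RYBP knockdown, 31.5% and 31.5% in the WDR5 knockdown and 14.4% and 16.1% in the TF-AA table. The shares were 16.1% and 17% in the phase disruption, 3.63% and 2.39% in the overexpression and 23% and 20.4% in the rTRS table. In the RYBP knockout 7 were higher and 7 lower of 23 tested. Pmepa1, a feedback inhibitor of SMAD2 and SMAD3, rose from a mean of 9.85 to 22.4 CPM, by 1.18 (edgeR adjusted p = 2.28e-14). Skil, a co-repressor of SMAD proteins, fell from 173 to 104 CPM, by 0.74 (edgeR adjusted p = 3.01e-17). In the RYBP knockdown 6 were higher and 8 lower of 22, with Inhbb, the activin beta-B subunit, at 444 CPM in shEV and 201 CPM in shRybp cells and Pmepa1 at 52.4 and 84.3 CPM.

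WDR5 knockdown left 11 of 22 higher and 4 lower. Smad3, a signal transducer of the pathway, rose from 20.2 to 55.9 CPM, by 1.47 (edgeR adjusted p = 9.44e-14), and Inhbb fell from 420.2 to 135 CPM, by 1.64 (edgeR adjusted p = 2.18e-14). In TF-AA ESCs 2 of 21 were higher and 8 lower. The lower ones included Skil, from 145 to 74.3 CPM, and the co-repressor Tgif2, from 27.5 to 13.3 CPM, while Inhbb rose from 105 to 208 CPM. In the phase disruption line 3 of 22 were higher and 5 lower, led by Fst, an activin-binding inhibitor, at 10.5 and 3.89 CPM in the 2 groups, and Skil, at -0.34 (edgeR adjusted p = 8e-07). Overexpression moved 2 of 20: Skil was 0.27 higher and Inhbb was at -0.40. In the libraries labelled DOX of rTRS cells, 13 of 22 were higher and 6 lower. Inhbb fell there from 86.7 to 8.81 CPM, by 3.30 (edgeR adjusted p = 4.34e-11), and Furin, a proprotein convertase that cleaves Nodal precursors, rose from 24.5 to 53.3 CPM, by 1.12 (edgeR adjusted p = 5.03e-07).

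The median log2 difference of the list was 0.47 in the rTRS table, where all genes tested had a median of 0.00, and -0.34 in the TF-AA table, against 0.01. In the RYBP knockout it was 0.01 against 0.00, in the RYBP knockdown -0.06 against 0.02, in the WDR5 knockdown 0.18 against -0.01, in the phase disruption -0.03 against 0.00 and in the overexpression -0.06 against 0.00.

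**Figure D3:**
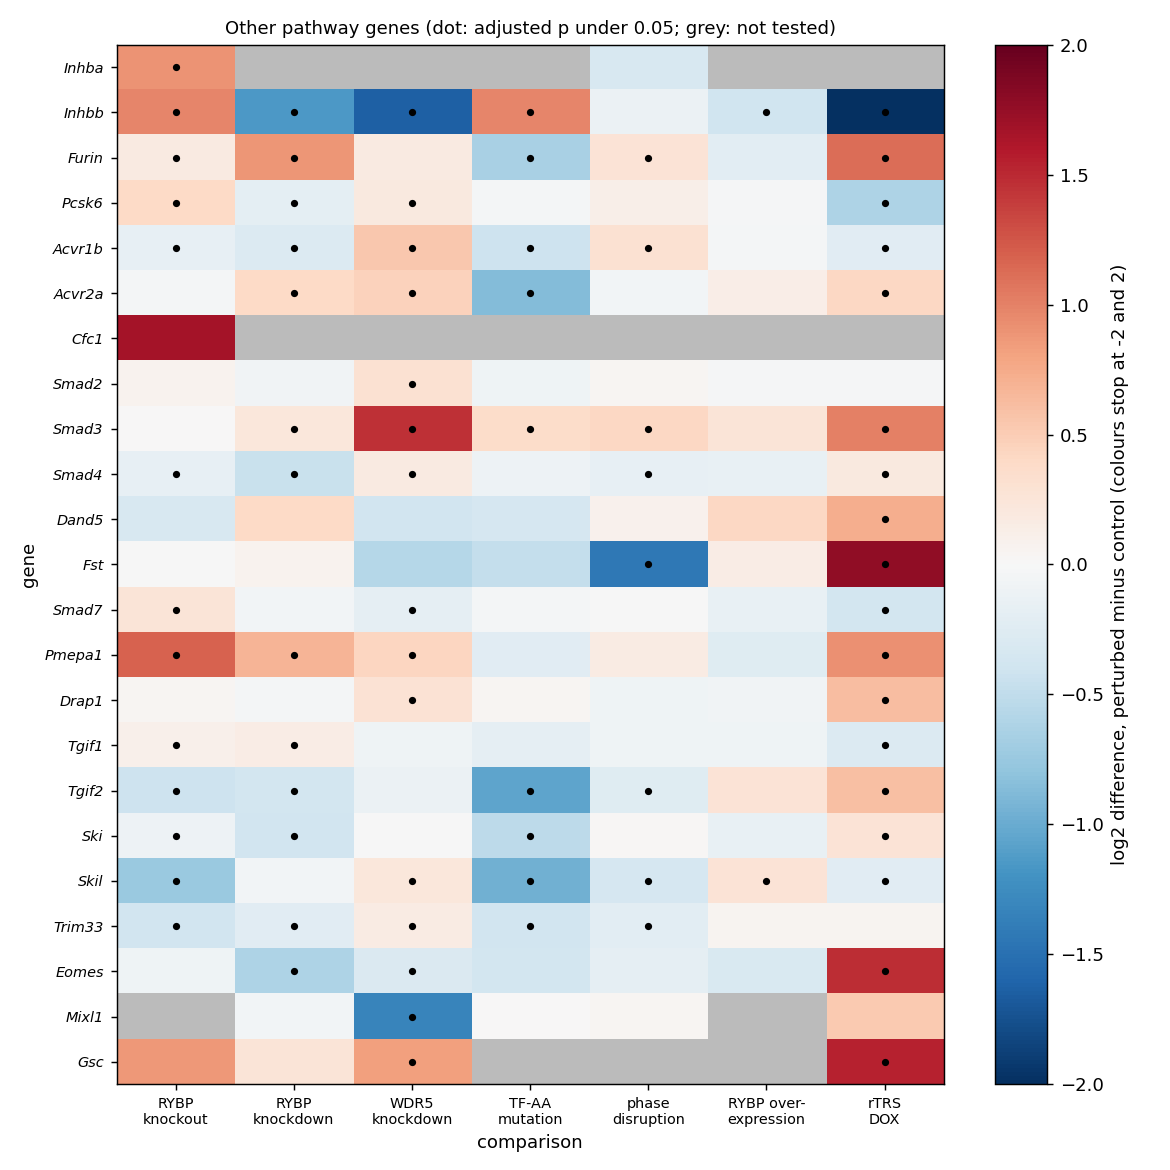
Log2 difference (colour, perturbed minus control) of other pathway genes in the 7 comparisons, with a dot where the edgeR adjusted p is under 0.05 and grey where a gene was not tested. The rTRS column holds the most called genes, and the overexpression column the fewest, Skil at 0.27 and Inhbb at -0.40.

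Peaks were taken from the gene body of each member and 10 kb on both sides. The authors' lists hold 1 set of peaks per condition, so peaks were compared without a test, and fold enrichment over input is a height within a list. Distances are from the annotated start of the gene (TSS) to the peak's summit, or to the middle of a RING1B peak. A peak was counted as near a TSS where any part of it lay within 2.5 kb. All 7 members had an H3K4me3 peak within 2.5 kb of the TSS in both genotypes, as did 65.7% of 22380 protein-coding genes in Rybp+/+ ESCs. For H3K27ac, a mark of active promoters and enhancers, 6 members had such a peak in Rybp+/+ and 7 in Rybp-/- ESCs, against 49.5% and 52.4% of protein-coding genes. The Lefty2 peak in Rybp-/- ESCs reached into this window by its edge only, with its summit 2.64 kb away. Summed over the 7 loci, H3K27ac peaks numbered 31 in Rybp+/+ and 32 in Rybp-/- ESCs, with 62.1 and 55.5 kb covered, and at a −log10 q of at least 5 they numbered 25 and 20. H3K4me3 peaks numbered 25 and 22, with 57.4 and 51.4 kb covered.

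The ligand and co-receptor genes lay in broad, high H3K27ac domains. At Nodal (chr10:60880720-60888086, plus strand) a peak over the TSS was 8387 bp wide and 29.1-fold enriched in Rybp+/+ ESCs, and 6241 bp wide and 21.7-fold enriched in Rybp-/- ESCs. Its summit, 1.48 kb upstream, is the centre of the Nodal window printed above. At Gdf3 (chr6:122555421-122560105, minus strand) the peak over the TSS had a fold enrichment of 46.6 and 22.3, at percentiles 99.6 and 96.1 of the 2 lists. This was the highest H3K27ac value at any member in Rybp+/+ ESCs and the largest H3K27ac difference between the genotypes in a peak over a member's TSS. At Tdgf1 (chr9:110842114-110848662, minus strand) 1 domain reached over 15770 bp in Rybp+/+ and 15555 bp in Rybp-/- ESCs, with fold enrichments of 40.2 and 33.5. In both genotypes it also covers the TSS of the neighbouring gene Lrrc2, 5387 bp from that of Tdgf1. H3K4me3 at these 3 starts went from 54.0 to 49.8 at Nodal, from 30.5 to 22.7 at Gdf3 and from 31.3 to 30.3 at Tdgf1.

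At Acvr2b (chr9:119311562-119342619, plus strand) the H3K27ac peak at the TSS stood at 25.0 in Rybp+/+ and 27.0 in Rybp-/- ESCs. H3K4me3 there was 40.7 and 69.8, at percentiles 87.3 and 99.5 of the lists, and WDR5 was 4.77 and 6.96. All 3 peaks cover the CpG-rich promoter printed above. At Foxh1 (chr15:76498714-76500378, minus strand) the peak over the TSS had 26.4 and 24.2 for H3K27ac and 26.0 and 18.4 for H3K4me3. A WDR5 peak 1.71 kb upstream of Foxh1 had 7.48 in Rybp+/+ and 19.7 in Rybp-/- ESCs, but its summit is 38 bp from the TSS of the neighbouring gene Ppp1r16a in the first list.

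The Lefty genes had less H3K27ac at their starts. Lefty1 (chr1:182865153-182868531, plus strand) had no H3K27ac peak over its TSS in either genotype, and the nearest upstream peak, 1.41 kb and 1.57 kb away, had a fold enrichment of 2.34 in Rybp+/+ and 5.72 in Rybp-/- ESCs, at percentiles 1.79 and 73.6. A further peak, 0.40 kb inside the gene with 2.99, was listed in Rybp-/- ESCs and not in Rybp+/+ ESCs. H3K4me3 over its TSS was 10.3 and 12.9. Lefty2 (chr1:182823239-182829234, plus strand) had no H3K27ac peak over its TSS either. Its upstream H3K27ac peak lay 3.98 kb away in Rybp+/+ and 4.01 kb away in Rybp-/- ESCs, with 13.5 and 11.2, and H3K4me3 over its TSS was 15.2 and 19.5. The upstream summit in Rybp+/+ ESCs is the centre of the window with 3 CAGACA matches. Over the same genotypes Lefty1 RNA was 0.42 lower and Lefty2 RNA 0.18 higher in Rybp-/- ESCs.

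WDR5 peaks lay near some of the members' starts. In Rybp+/+ ESCs 4 members and in Rybp-/- ESCs 4 members had a WDR5 peak within 2.5 kb of the TSS, against 44.8% and 47.2% of protein-coding genes. They were at Nodal, Acvr2b and Foxh1 in both, at Tdgf1 in Rybp+/+ and at Gdf3 in Rybp-/- ESCs. The Nodal peak had a fold enrichment of 4.09 and 3.97. A peak upstream of Tdgf1, with 4.65, was listed in Rybp+/+ ESCs and not in Rybp-/- ESCs. A Gdf3 peak of 2.41, at percentile 0.68 of its list, was listed in Rybp-/- ESCs and not in Rybp+/+ ESCs. Its −log10 q was 1.52, which misses the FDR cut stated in the study's methods. The list of WDR5 peaks held 11965 and 12946 peaks in the 2 genotypes.

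**Figure D4:**
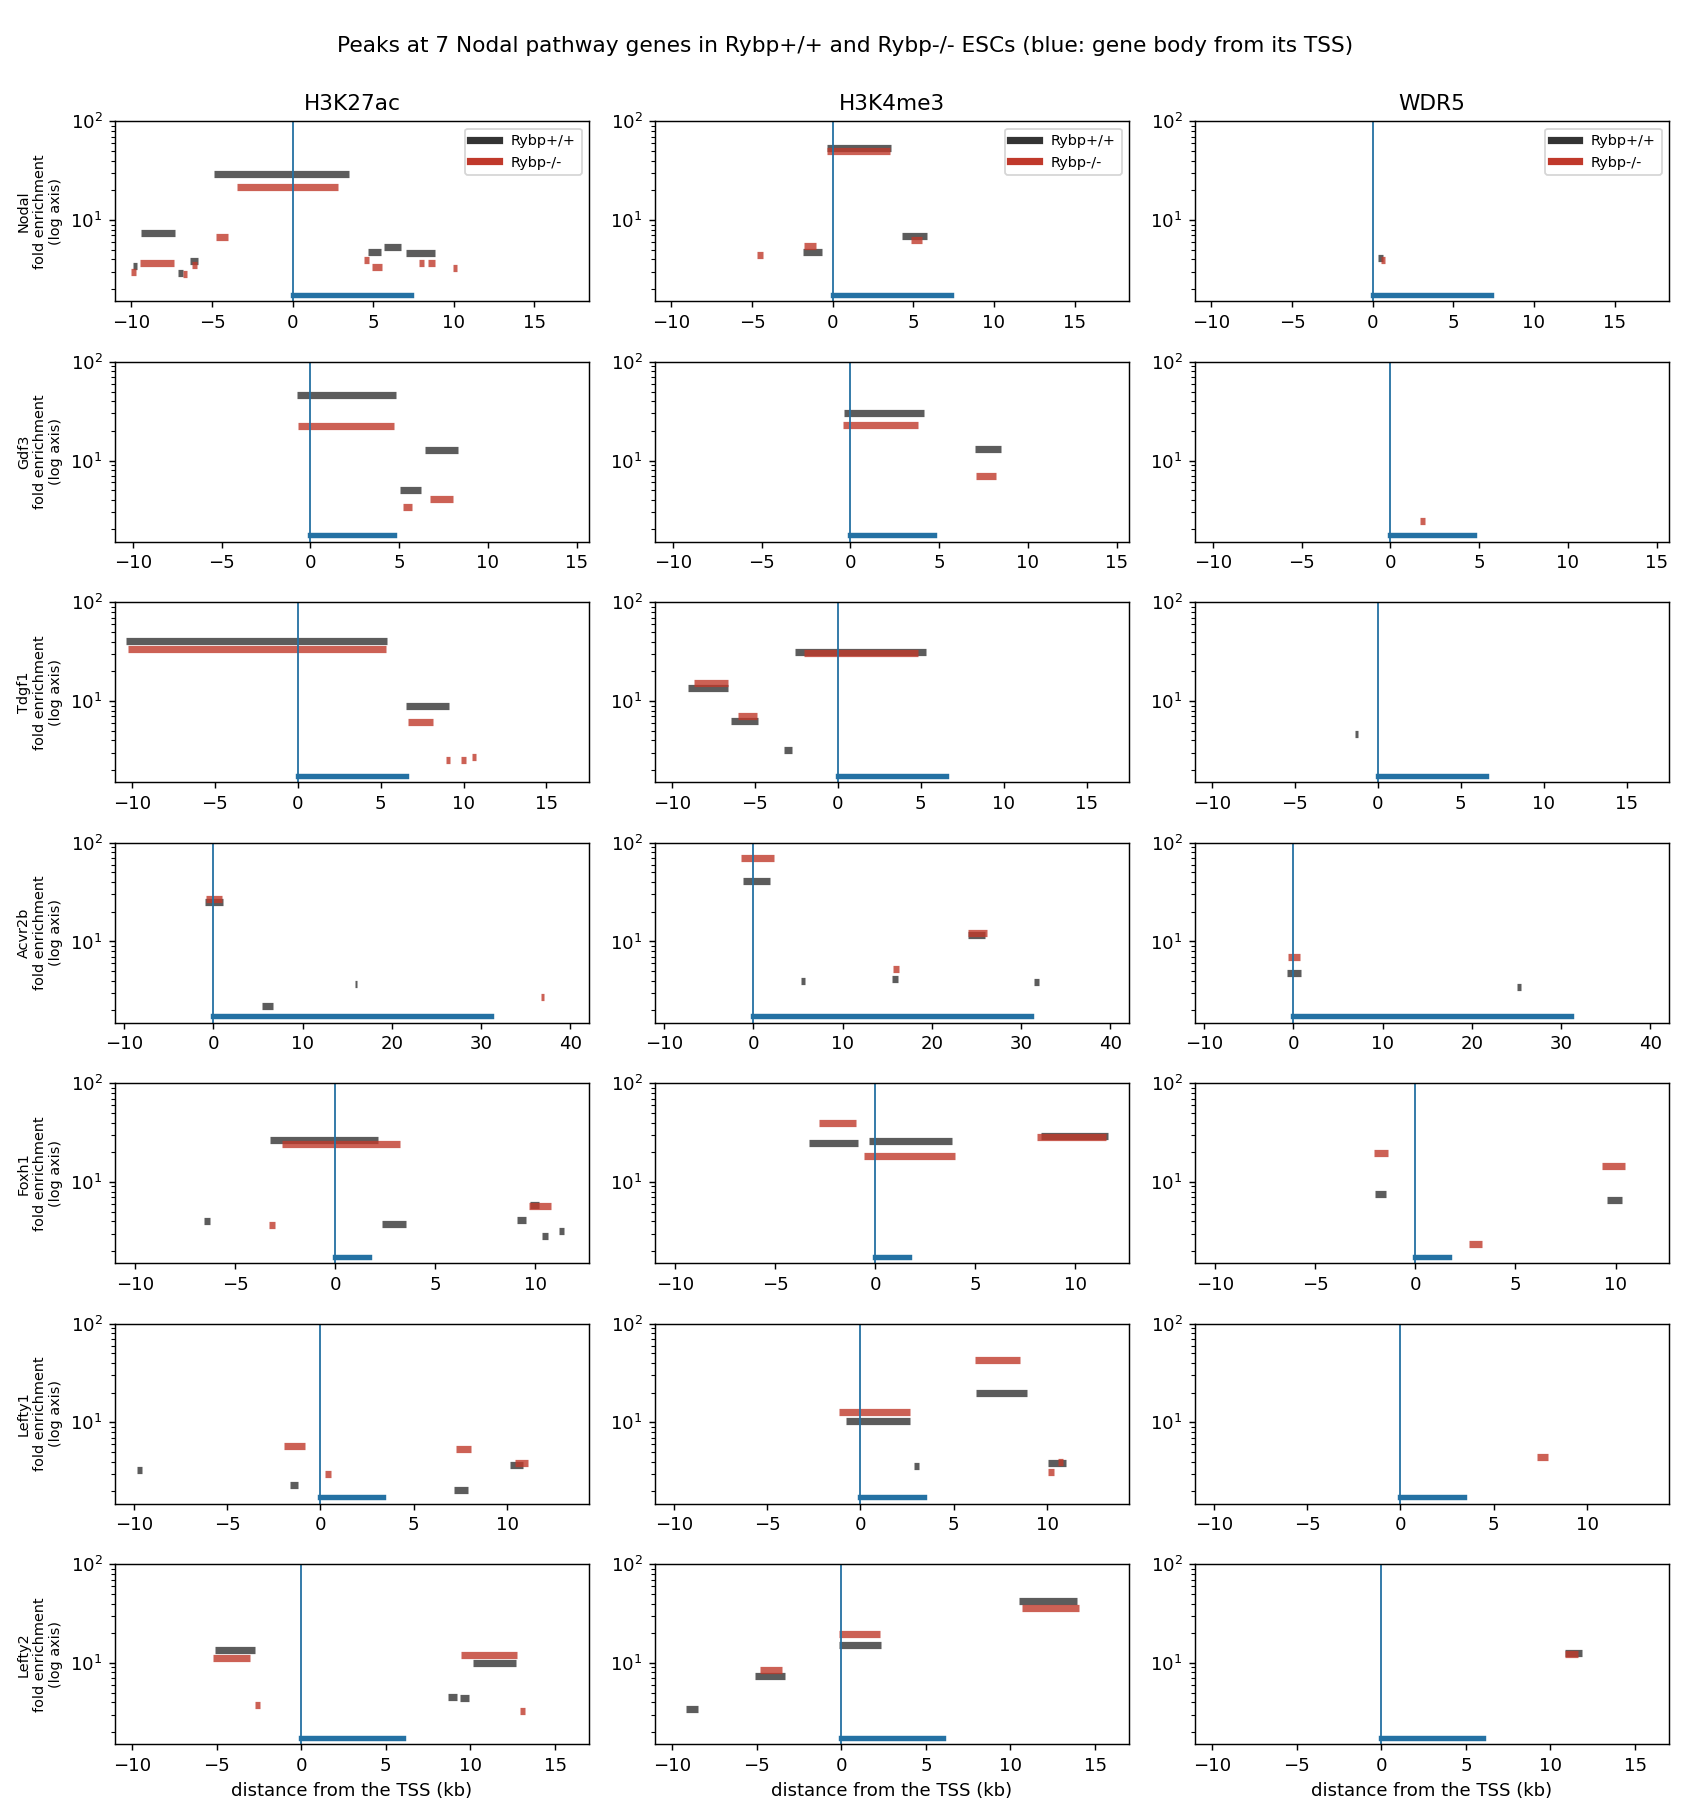
Peaks at the 7 genes as bars, by distance from the TSS in kb and fold enrichment (log axis), in Rybp+/+ (grey) and Rybp-/- ESCs (red), for H3K27ac, H3K4me3 and WDR5, with the gene body in blue. H3K27ac over the TSS is lower in Rybp-/- ESCs at Gdf3 (46.6 and 22.3), and H3K4me3 over the TSS is higher at Acvr2b (40.7 and 69.8).

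STAT3 and RING1B, the catalytic subunit of PRC1, were also mapped in ESCs with DOX-inducible Rybp and Stat3. The STAT3 list held 2816 peaks without DOX and 30663 with DOX, and the peak names of these lists hold the word sampled, which no source used here explains. At the members the number of STAT3 peaks went from 1 to 19, and 6 members had one within 2.5 kb of the TSS with DOX, where 54.9% of protein-coding genes did. Gdf3 had none. The peak upstream of Lefty1, 0.82 kb from the TSS, had a fold enrichment of 4.18, and the peak over the Lefty2 TSS had 5.21.

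The single STAT3 peak without DOX lay 7.58 kb downstream of the Lefty1 TSS (chr1:182872567-182872911) with a fold enrichment of 6.87, and its summit is 261 bp from the TSS of the next gene, Tmem63a. This site carried the strongest RING1B peak of any member locus, 16.3 without and 10.9 with DOX, and 8.01 in shEV and 10.2 in shStat3 ESCs. Its H3K4me3 was 20.1 in Rybp+/+ and 42.6 in Rybp-/- ESCs, and a WDR5 peak of 4.51 was listed there in Rybp-/- ESCs and not in Rybp+/+ ESCs. The site is nearer to the Tmem63a TSS than to that of Lefty1.

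RING1B peaks inside the Lefty genes were found in all 4 RING1B lists. In Lefty1 their fold enrichment was 3.72 without and 4.94 with DOX, and 3.31 in shEV and 4.41 in shStat3 ESCs. In Lefty2 it was 5.92 without and 4.61 with DOX, and 3.96 in shEV and 4.93 in shStat3 ESCs. The −log10 q of these peaks was 1.92 in shEV and 4.25 in shStat3 ESCs for Lefty1, and 4.18 and 4.89 for Lefty2. Without DOX it was 3.50 for Lefty1, and the other DOX- and DOX+ values were at 7.23 or more. The shEV and shStat3 lists came from 1 ChIP sample each. Acvr2b had a RING1B peak at its start in all 4 lists as well, with fold enrichments of 7.58 and 5.17 without and with DOX and 4.46 and 4.11 in shEV and shStat3 ESCs. Tdgf1 had no RING1B peak within 2.5 kb of its TSS in any list. The members held 12 RING1B peaks without and 6 with DOX, in lists of 17021 and 12864 peaks. They held 8 each in shEV and shStat3 ESCs, in lists of 14408 and 12017 peaks. Within 2.5 kb of the TSS 5 members had a RING1B peak without and 4 with DOX, against 52.4% and 39.7% of protein-coding genes. In shEV and shStat3 ESCs 5 and 4 members had one, against 43.6% and 39.4%. In Rybp+/+ ESCs the list of 2363 STAT3 peaks held 2 at the members, at the Acvr2b TSS (2.58) and downstream of Lefty2 (4.53), and the Rybp-/- list of 1917 peaks held none. Each of these lists came from 1 ChIP sample, and at a −log10 q of at least 5 the count was 0 in both.

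**Figure D5:**
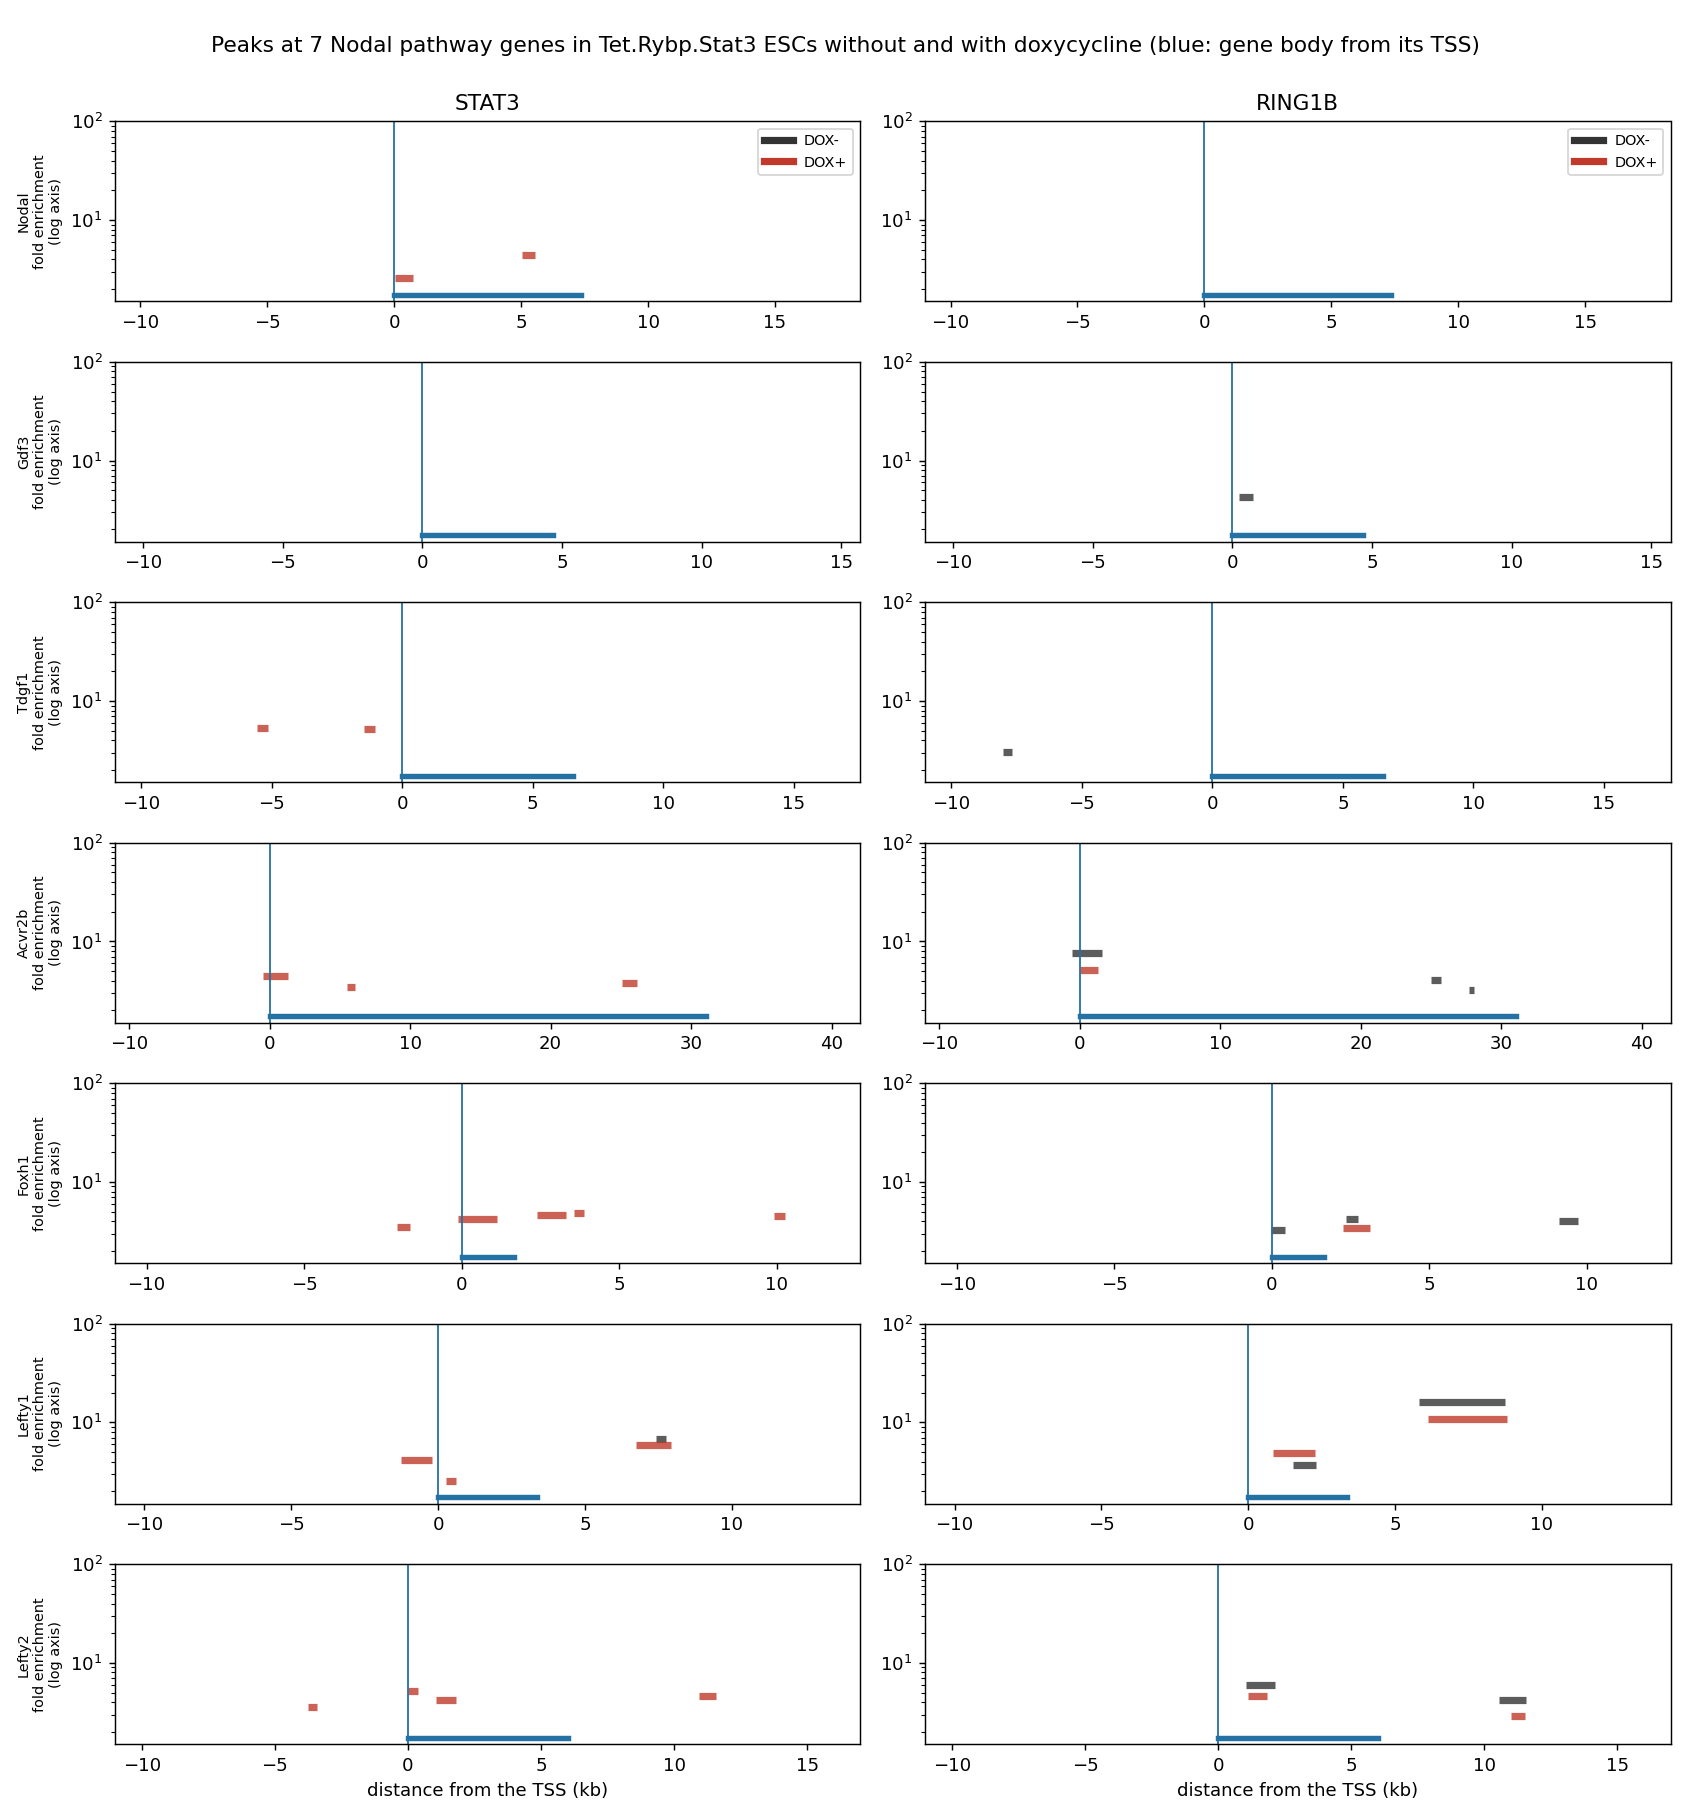
STAT3 and RING1B peaks at the 7 genes as bars, by distance from the TSS in kb and fold enrichment (log axis), in Tet.Rybp.Stat3 ESCs without (grey) and with DOX (red), with the gene body in blue. STAT3 peaks number 1 without and 19 with DOX at these loci, and the RING1B peak downstream of Lefty1 is the highest at 16.3 and 10.9.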

How the data were processed

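RNA was measured in 28 libraries of mouse ESCs, and the peak lists came from ChIP-seq of the same study. Per the study's methods, the authors trimmed reads with Trim Galore, mapped them with STAR to mm9 and counted them with htseq-count. The deposited values are raw counts per gene, in 7 tables with gene length in bases (the overexpression table holds no length column, so the lengths of the other tables were used). Rows that name no gene held 13.7% to 26.5% of a library, or 56.3% to 58.5% where unaligned reads were listed, and were left out; the overexpression table had none. ChIP-seq reads were mapped by the authors with Bowtie2 to mm9, duplicates were removed, replicates were merged and MACS2 called peaks against input. The deposited lists give each peak's fold enrichment (a ratio over input) and its −log10 q. These methods are stated for the knockout and knockdown RNA-seq and for H3K27ac, H3K4me3 and WDR5. For the other tables and lists the steps are not given in the sources used here.

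Samples were grouped by their GEO labels. Some columns carry shorter names and were matched by them: WT in the phase disruption table to WT.RYBP, WT in the TF-AA table to WT ESC, NTC in the overexpression table to vehicle, EV to shEV, and S5-DOX_R2 in the rTRS table to the second DOX library. No per-sample column was left unused (0). Counts were filtered with filterByExpr, scaled by TMM and tested with edgeR 4.0.16 in R 4.3.3 (quasi-likelihood, Benjamini-Hochberg adjustment, call at an adjusted p under 0.05), each table on its own. Knockout and knockdown were compared by an interaction term in a joint fit of both tables. The scripts were tested on simulated data. The members, the list of 27 pathway genes, the marker lists and the tests were chosen with earlier results of these data known. Named genes are all members in every comparison, and the 2 to 4 pathway genes with the smallest adjusted p in each comparison, apart from 1 gene whose values are not reported here. Alternatives were DESeq2 1.42.0, RLE size factors, no filter, a replicate block, leaving out each library, a window of 2.5 kb around the TSS, −log10 q of at least 5, and overlap of 50% in place of 1 bp. Peaks were assigned within 10 kb of a gene. RING1B peaks are broad and have no summit, so their middle was used. Depth was 14512857 to 81049618 counts per library. The values of log2 CPM used a prior count of 2.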

Additional observations from a re-analysis of the deposited data

Results flagged for a closer look

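For 5 members the log2 difference under loss of RYBP differed between the knockout in R7.15 ESCs and the knockdown in R1 ESCs by the interaction term in edgeR. The knockout minus the knockdown was -1.85 for Lefty1, -1.38 for Lefty2, -0.80 for Foxh1, -0.37 for Nodal and -0.33 for Tdgf1. Lefty1, Foxh1 and Tdgf1 changed in opposite directions, each with both perturbed libraries on their own side of both control libraries. Among the controls Lefty1 was at 39.2 and 41.0 CPM in Rybp+/+ and at 67.1 and 60.2 CPM in shEV libraries, in tables that were scaled separately and were not tested against each other. Cell line and method change together here and cannot be told apart.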

How the results depend on the processing

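Of 469 refits of the members' log2 differences, 208 under other settings and 225 without a library kept their direction and side of the threshold. DESeq2 called 3 members in the TF-AA table and 2 in the phase disruption table, where it called 2980 genes in all. Without the filter 2 members were called in the phase disruption table, and Tdgf1 passed the threshold in the overexpression table (-0.12). Foxh1 in the WDR5 knockdown turned sign at a value near 0, to 0.0017 with DESeq2 and 0.0028 with RLE factors. Leaving out a library gave 3 to 5 members called in the TF-AA table (3 without WT ESC replicate 1 or either TF-AA mutation library) and 2 to 3 in the phase disruption table (2 without WT.RYBP replicate 1). It gave 2724 to 4767 genes called in the TF-AA table and 406 to 1566 in the overexpression table. Signs turned in the WDR5 knockdown for Foxh1 (-0.12 to 0.12, and 0.018 without shWdr5 replicate 1) and Lefty1 (-0.0067 to 0.15), both without shEV replicate 2. They turned for Gdf3 in the TF-AA table (-0.041 to 0.059, below 0 without WT ESC replicate 2 or TF-AA mutation replicate 1), for Tdgf1 in the phase disruption table (-0.0050 to 0.054, below 0 without phase disruption replicate 1), for Acvr2b in the overexpression table (-0.019 to 0.25, below 0 without vehicle replicate 2) and for Gdf3 in the knockout minus the knockdown (-0.026 to 0.086, below 0 without Rybp+/+ replicate 1). None of these was called. The cause was not tested. A lone library left in a group is assumed to vary like the other group.

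Groups share replicate numbers, and the deviations of same-numbered libraries correlated between -0.02 and 0.07 in the tables, with 2 pairs each. The fit with the replicate block called 7 members in the knockout table and lost or gained no member call in any table. Over all genes it called more in every table. The count was 5525 against 4412 in the TF-AA table, 8559 against 7070 in the rTRS table and 1211 against 899 in the overexpression table. In the knockout table it was 7724 against 7720. Whether same-numbered libraries were handled together was not tested.

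Within 2.5 kb of a TSS the members had 7 and 8 H3K27ac peaks in Rybp+/+ and Rybp-/- ESCs (7 shared), 9 and 9 H3K4me3 peaks (9 shared), 4 and 4 WDR5 peaks (3 shared) and 1 STAT3 peak in Rybp+/+ ESCs. The counts were 6 for RING1B and 0 for STAT3 without DOX, 10 for STAT3 with DOX (0 shared), and 5 and 5 for RING1B in shEV and shStat3 ESCs. At −log10 q of at least 5 they were 25 for H3K27ac in Rybp+/+ and 20 in Rybp-/- ESCs, which turns the order of 31 and 32, 0 for STAT3 in Rybp+/+ ESCs, 6 for RING1B without and 4 with DOX (3 shared), and 3 and 3 for RING1B in shEV and shStat3 ESCs (2 shared). A peak below a list's threshold is not listed, so its absence is limited by depth, which is not given for these lists.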
